A study of Homo sapiens with 44 samples.

Results

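The natriuretic peptide system was followed through cardiac differentiation of human embryonic stem cells at the level of 7 genes. These are the peptide genes NPPA, NPPB and NPPC, the receptor genes NPR1, NPR2 and NPR3, and CORIN. They were chosen by symbol, each symbol was mapped to its Ensembl identifier through GENCODE release 29, and all 7 were found among the 60499 genes listed in the deposited tables. The rule itself uses no measured value, though earlier results of these data were known when the genes were chosen. All 7 were among the 22955 genes that passed the filter on low counts.

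Every library came from the established H1 line of human embryonic stem cells, with no engineered allele named in the labels, and each was made from 1 culture well. Pluripotent cells on laminin LN-521 form 1 group of 3 libraries. Confluent cells on LN-521 with LN-221 form the day 0 group, and from then on all wells received CHIR99021, an inhibitor of the kinase GSK3, at day 0 and IWP2, an inhibitor of Wnt production, at day 3. Wells were taken at days 0, 1, 3, 14, 20, 30 and 90 (3 libraries each) and at days 5, 7, 9 and 11 (5 libraries each), 44 libraries in all. Per the labels, the supplement B27 lacked insulin until day 9 and was the CTS B-27 product from day 11 on, so the days before and after also differ in medium. For day 11 the series text speaks of triplicates, but 5 libraries carry that label and each was included. No untreated wells were kept alongside, so each day is compared with an earlier day.

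NPPA encodes the precursor of atrial natriuretic peptide and NPPB that of B-type natriuretic peptide, hormones that heart muscle cells secrete when stretched and that lower blood volume and pressure. NPPC encodes the precursor of C-type natriuretic peptide, a local signal best known from endothelium and growing cartilage. CORIN is a membrane-bound serine protease of heart muscle that cuts the atrial precursor into its active form. NPR1 binds the atrial and B-type peptides and NPR2 the C-type peptide, and both make cyclic GMP inside the cell. NPR3 has no cyclase domain and removes the peptides from the circulation. In the embryo NPPA and NPPB are early marks of working myocardium.

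NPPA and NPPB lie head to tail on the minus strand of chromosome 1 (GRCh38), at positions 11845709 to 11848345 and 11857464 to 11858931. They are separated by 9118 bases, and 0 annotated genes lie wholly between them. The other members are scattered. NPPC is on chromosome 2 (231921820 to 231926403, minus strand) and CORIN on chromosome 4 (47593998 to 47838106, minus strand). NPR1 is on chromosome 1 (153678637 to 153693992), NPR2 on chromosome 9 (35792154 to 35809732) and NPR3 on chromosome 5 (32689070 to 32791724), all on the plus strand.

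The sequence just before the start site is shown for NPPA, NPPC and CORIN, because their first called changes came over different days. NPPA rose from day 5 to day 7 and CORIN from day 3 to day 5. NPPC fell from day 0 to day 3, at trace levels, and rose again by day 5. Sequences were copied from the RefSeq promoter table (GRCh38.p14), which held 6 of the 7 members, NPPB not among them. Each is written 5′ to 3′ on the gene's own strand. Capitals mark matches on either strand to 4 letter strings. TATAAA is the usual TATA box of a promoter. GATAA is a core bound by transcription factors of the GATA family. AAGTG is a core bound by the cardiac homeobox factor NKX2-5. AGGTGT is a core bound by T-box factors. No string overlaps another in the printed stretches. They were searched in the 250 bases before the start site of that promoter table. For NPPA this site lies inside the gene span given above, and so do the printed stretches. For NPPA, short stretches around matches are shown, since another gene's untranslated exon is annotated across that window. For NPPC and CORIN the printed bases end before the annotated untranslated sequence.
NPPA, chr1:11847795-11847824, minus strand: gagctggggggcTATAAAaagaggcggcac
NPPA, chr1:11847862-11847891, minus strand: tCACTTggcagctTTATCactgcAAGTGac
NPPA, chr1:11847908-11847937, minus strand: agccctgcgggatGATAActttaaaagggc
NPPC, chr2:231926404-231926646, minus strand: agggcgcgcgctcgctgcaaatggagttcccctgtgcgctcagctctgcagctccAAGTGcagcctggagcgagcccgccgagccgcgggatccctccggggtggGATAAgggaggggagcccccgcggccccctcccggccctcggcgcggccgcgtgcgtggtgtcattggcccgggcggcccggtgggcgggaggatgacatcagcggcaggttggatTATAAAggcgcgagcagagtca
CORIN, chr4:47838107-47838317, minus strand: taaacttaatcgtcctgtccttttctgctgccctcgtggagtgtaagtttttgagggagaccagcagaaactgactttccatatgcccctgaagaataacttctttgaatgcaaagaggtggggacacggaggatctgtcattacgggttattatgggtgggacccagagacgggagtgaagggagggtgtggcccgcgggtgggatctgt

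In the NPPA window TATAAA began 29 bases before the start site. GATAA matched at -141 and, on the opposite strand, at -95, with an AAGTG match on each side of the second, at -107 and -85. The NPPC window also held TATAAA at -29, with GATAA at -145 and AAGTG at -195. The first 3 strings stood together in 1.68% of the 35116 windows of that length in the table. By itself TATAAA was found in 10.7% of windows, GATAA in 20.4%, AAGTG in 37.6% and AGGTGT in 9.57%. The CORIN window held none of the 4 strings, as did 43.1% of all windows. The NPPC window was rich in G and C (72.0%, with 28 CpG pairs), whereas NPPA (57.2%, 4 CpG pairs) and CORIN (51.2%, 8 CpG pairs) were near or under the median of all windows (58.0%, 11 CpG pairs). These matches describe the letters and show no binding.

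Total estimated counts ran from 6937136 to 33498022 per library, and 3 counts, chosen as a floor, correspond to 0.0919 to 0.410 CPM (CPM being estimated counts relative to the TMM-scaled library total, the unit of all levels given unless TPM is named). Levels under that floor are printed but rest on very few reads. The cells carried the marks of the lineage: 6 of 7 cardiomyocyte markers rose from day 3 to day 9 and all 4 pluripotent markers fell. Of all tested genes, 12.3% were called higher over these days and 21.2% in either direction. Markers of other cell types rose over the same days: 4 of 4 of smooth muscle (summed level 67.8 to 92.5 CPM at day 3 and 441 to 1405 CPM at day 9), 5 of 6 of fibroblasts and epicardium (58.3 to 104 and 418 to 951 CPM) and 4 of 5 of endoderm and liver. Their part in the members' changes was not tested. The RNA is that of whole wells, so that fewer cells of a type and less RNA per cell cannot be told apart. The summed level of the 5 endoderm and liver markers lay between 44.4 and 47.8 CPM at day 3 and between 467 and 6105 CPM at day 9, and 1 of these, AFP, was at 4221 CPM in day 9 replicate 2 against 175 to 1217 CPM in the other 4 wells. At day 11 AFP was at 3890 and 7287 CPM in replicates 1 and 2 and at 80.3 to 97.0 CPM in the other 3. In day 90 replicate 4 MYH7, a myosin of ventricular muscle, reached 36480 CPM (other wells 4301 and 8055) and ACTA2, a smooth muscle actin, was at 30.5 CPM (other wells 663 and 522). The comparisons of day 9 and day 90 were therefore repeated without day 9 replicate 2 and day 90 replicate 4. The labels do not say that wells came from separate cultures, so p-values measure the spread between wells.

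NPPA was close to silent until day 5, and its change from day 3 to day 9 was the largest of the 7. It was at 1.27, 1.75 and 1.13 CPM in the 3 wells of day 3, and at 1.82, 1.96, 0.642, 2.61 and 4.31 CPM in the 5 wells of day 5. By day 7 the wells had reached 43.6, 47.5, 55.3, 58.4 and 117 CPM, and by day 9 they were at 412, 183, 453, 683 and 1407 CPM. The wells of days 3 and 5 overlapped, while every day 7 well was above every day 5 well and every day 9 well above every day 7 well. At day 9 NPPA ranked 91 among 19650 protein-coding genes by mean TPM (425 ± 303 TPM, SD, n = 5), where it had ranked 11441 at day 3.

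The NPPA change from day 3 to day 9 was 8.82 ± 1.07 on the log2 scale (fitted change ± SE), with an adjusted p of 2.9e-08 (edgeR's quasi-likelihood test, Benjamini-Hochberg adjustment), and 9.04 without day 9 replicate 2 and day 90 replicate 4. Between neighbouring days it was 0.72 ± 0.82 from day 3 to day 5, which did not pass the test, 4.82 ± 0.71 in the next step to day 7 and 3.28 ± 0.64 in the step to day 9. These 3 steps, here and for the other members, were added after the levels had been seen. They share wells with one another and with the comparison of day 9 with day 3.

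The lowest levels of NPPA, NPPB and CORIN may be upper bounds, and their rises from day 3 then lower bounds. Per the labels' protocols, libraries were pooled 10 to a lane, and the lane totals here count only the libraries of this series. The 12 wells up to day 3 held 12 to 68 NPPA counts, or 0.0310% to 0.107% of the NPPA counts of their own lane. At day 5 the wells held 15 to 116 counts, 0.0358% to 0.158% of the lane. CORIN held 17 to 42 counts in the 12 early wells, 0.0602% to 0.154% of its lane's counts, and 1.77% to 3.60% at day 5. Whether some of the early reads came from other libraries of the lane was not tested. The same holds for NPPB, with 3 to 29 counts in the 12 early wells, 0.0213% to 0.275% of its lane's counts. At day 5 NPPB held 1.68% to 5.80%.

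After day 9 NPPA varied widely between wells. Day 11 wells were at 229, 109.8, 1548, 1240.0 and 902 CPM. The 2 low ones, replicates 1 and 2, were those with AFP at 3890 and 7287 CPM. Their cardiomyocyte markers summed to 11970 and 6761 CPM, against 21660 to 27880 CPM in replicates 5, 6 and 7. AFP was also at 1902 to 3393 CPM in the day 14 wells and at 840 to 3390 CPM in the day 20 wells. The part of either in the NPPA levels was not tested. Day 14 wells held 109, 252 and 341 CPM and day 20 wells 286, 98.1 and 151 CPM. At day 30 the wells were at 802, 201 and 65.0 CPM and at day 90 at 1325, 184 and 937 CPM. The coefficient of variation of NPPA between wells was 74.9% at day 9 and 71.2% at day 90, where the median over tested genes at or above 1 CPM was 16.1% and 22.8%. The change from day 9 to day 90 did not pass the test (log2 change 0.38 ± 0.67, adjusted p 0.70, edgeR's quasi-likelihood test), and the day 30 wells overlapped both. The change from day 9 to day 30 (-0.82 ± 0.70, adjusted p 0.39) also did not pass, and without day 30 replicate 1, the highest well, it was -2.25 and was called (adjusted p 0.04). On TPM the day 90 change had the opposite sign (-0.28), and TPM shifted the median gene by -0.54 in that comparison. The day 90 change was 0.62 without day 9 replicate 2 and day 90 replicate 4.

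**Figure D1:**
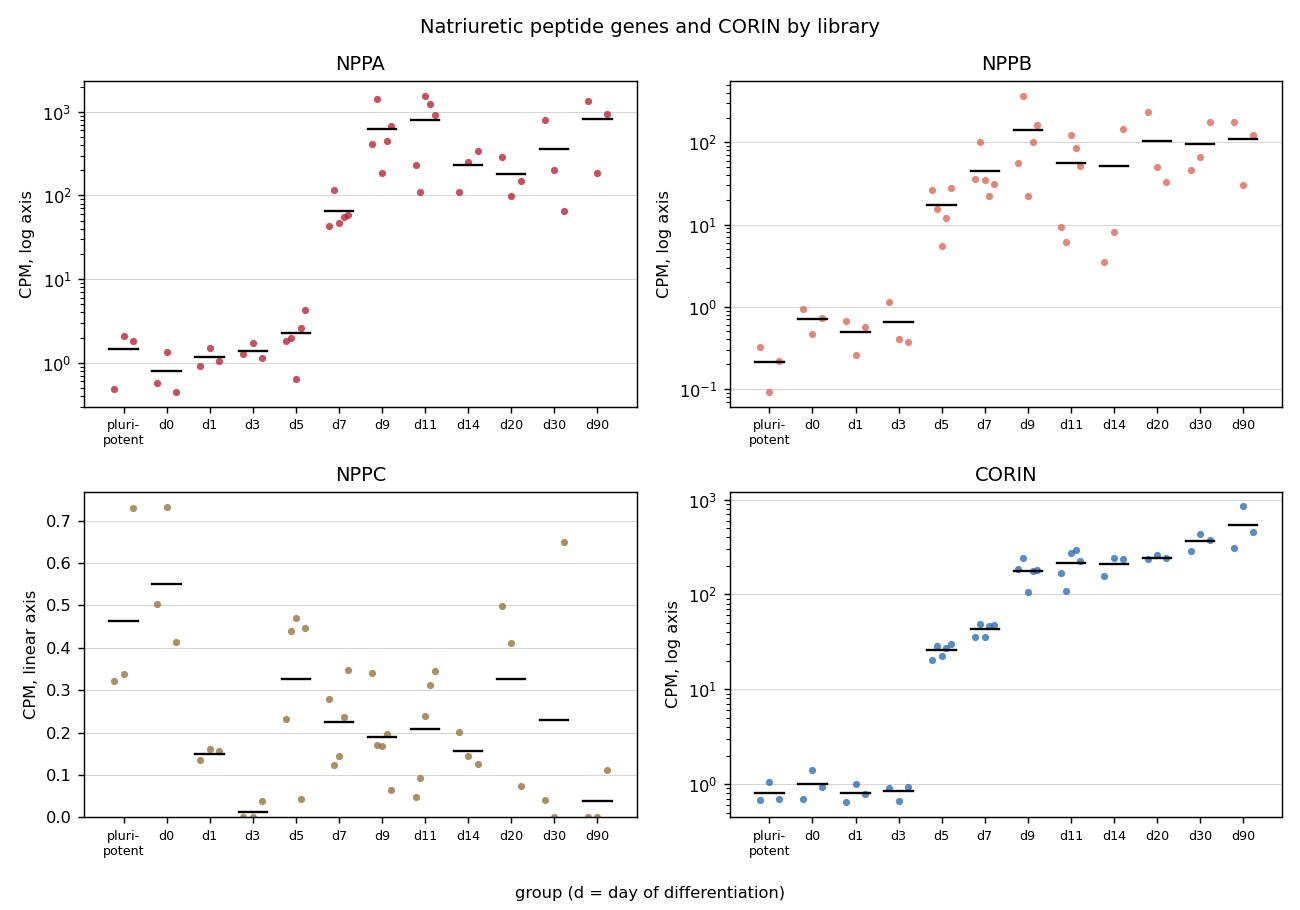
NPPA, NPPB and CORIN (log axis) and NPPC (linear axis) in CPM for the 12 groups. Each point is 1 library and each black line the mean of its group. NPPB and CORIN stepped up at day 5 and NPPA at day 7, while NPPC stayed under 1 CPM in every library.

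NPPB stepped up 1 sampled day before NPPA. Its wells were at 1.15, 0.410 and 0.377 CPM at day 3 and at 26.2, 15.3, 5.48, 11.9 and 27.8 CPM at day 5, with no overlap. They went on to 35.7, 34.5, 22.4, 30.9 and 99.7 CPM at day 7 and to 55.6, 22.1, 101, 161 and 367 CPM at day 9. From day 5 on, the wells of neighbouring days overlapped. The rise from day 3 to day 5 was 4.75 ± 1.21 on the log2 scale (adjusted p 0.0044) and that from day 3 to day 9 was 7.77 ± 1.34 (adjusted p 1.6e-05, both from edgeR's quasi-likelihood test), whereas the later steps to day 7 (1.36 ± 0.76) and day 9 (1.66 ± 0.76) did not pass.

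NPPB was uneven from day 11 onward. The day 11 wells were at 9.40, 6.18, 124, 85.9 and 51.3 CPM, again low in replicates 1 and 2. Day 14 wells held 3.52, 8.12 and 143 CPM and day 20 wells 232, 50.5 and 32.7 CPM. The wells were at 45.6, 66.5 and 177 CPM at day 30 and at 177, 30.5 and 123 CPM at day 90. For NPPB the change from day 9 to day 90 did not pass the test (-0.36 ± 0.87, adjusted p 0.78, edgeR's quasi-likelihood test), and the sign turned without day 9 replicate 10, the highest well (0.38), and without day 90 replicate 4 (0.09). The changes to day 9 and to day 90 were 8.04, called, and -0.19, not called, without day 9 replicate 2 and day 90 replicate 4.

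Set against each other within a library, per transcript length, the 2 heart hormones changed places. At day 5 the TPM of NPPB was above that of NPPA in 5 of 5 wells, by a mean log2 ratio of 3.35 ± 0.61 (SD). At day 7 it was above in 2 of 5 wells (-0.25 ± 0.46) and at day 9 in 0 of 5 (-2.04 ± 0.51). The ratio fell 41.7-fold between day 5 and day 9, a log2 difference of -5.38 with no overlap between the wells (two-sided exact permutation test over 252 splits, p = 0.00794, the smallest that these groups allow; compared after the levels had been seen). If the NPPA levels of day 5 are upper bounds, the day 5 ratios are lower bounds. At day 11 the ratio was lowest (-3.69 ± 0.37, 0 of 5 wells), and at days 20 and 30 it ran from -1.81 to 0.09 and from -3.75 to 1.84, with NPPB above NPPA in 1 of 3 wells on each day. At day 90 it was -2.42 ± 0.19, near the day 9 mean (difference -0.38, exact permutation p = 0.268, adjusted over 5 ratios 0.335), and the difference was -0.65 without day 9 replicate 2 and day 90 replicate 4.

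**Figure D2:**
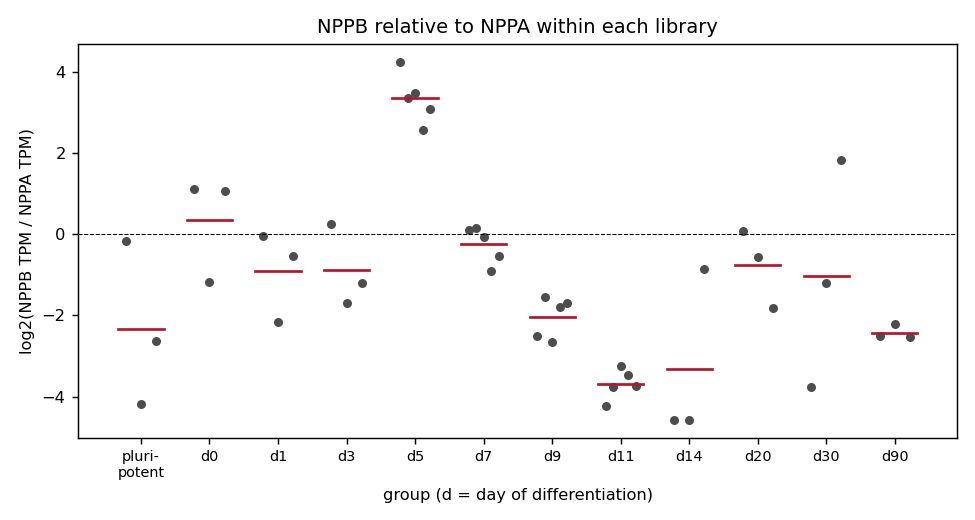
The log2 ratio of NPPB to NPPA TPM in each library (points) with group means (red lines) and equality (dashed line). The 5 day 5 wells lie between 2.58 and 4.24, and the day 9 wells between -2.66 and -1.55.

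NPPC was a trace transcript throughout, between 0 and 0.732 CPM. By group mean it was highest before differentiation, at 0.322, 0.337 and 0.729 CPM in pluripotent cells and 0.503, 0.732 and 0.414 CPM at day 0. Day 1 wells held 0.135, 0.161 and 0.156 CPM, and at day 3 the wells held 0, 0 and 1 count. The fall from day 0 to day 3 was called (-4.96 ± 1.13 on the log2 scale, adjusted p 0.00094, edgeR's quasi-likelihood test). With so few counts the fitted size depends on the model. A direct ratio of 49 to 1 counts, scaled for depth, gave a day 0 level 43.3 times that of day 3, with an exact 95% interval of 7.42 to 1746 that covers counting error only.

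NPPC was detected again at day 5, at 0.232, 0.439, 0.471, 0.0435 and 0.446 CPM, which was 25.9 times the day 3 level (4.40 to 1049 by the same method). At day 9 the wells held 2 to 9 counts, and the level was 14.5 times that of day 3 (2.37 to 594). Both rises were called by edgeR's quasi-likelihood test (adjusted p 0.0055 and 0.014), and that to day 9 was lost without day 3 replicate 1 or 2 (adjusted p 0.072 and 0.075). By day 90 the wells held 0, 0 and 2 counts, and the day 9 level was 5.03 times as high (1.25 to 43.8), which was not called by the same test (adjusted p 0.097). The fitted changes to day 9 and to day 90 were 3.46, called, and -1.78, not called, without day 9 replicate 2 and day 90 replicate 4. At day 30, 14 of 15 counts came from replicate 3.

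CORIN rose at day 5, as NPPB did, and its later rise from day 9 to days 30 and 90 passed the test with all wells in. It was at 0.914, 0.670 and 0.943 CPM at day 3, at 20.5, 28.9, 22.6, 27.2 and 29.7 CPM at day 5 and at 35.5, 35.3, 46.7, 47.6 and 48.7 CPM at day 7. At day 9 the wells were at 186, 105.5, 176, 181 and 240.3 CPM. Wells of each of these days were separate from those of the day before. The log2 changes were 4.93 ± 0.37 from day 3 to day 5 (adjusted p 2.7e-12) and 2.06 ± 0.24 from day 7 to day 9 (adjusted p 1.1e-06), and the step from day 5 to day 7 (0.73 ± 0.23) did not pass (edgeR's quasi-likelihood test). From day 3 to day 9 the rise was 7.72 ± 0.41 (adjusted p 9.6e-17), with a smaller SE than those of NPPA and NPPB, and 7.84 without day 9 replicate 2 and day 90 replicate 4.

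At day 90 the coefficient of variation of CORIN between wells was 52.3%, against 32.0% in NPR2 and 67.2% to 173% in the other 5 members. The median over tested genes at or above 1 CPM was 22.8%. The highest value, 173%, was that of NPPC, with 0, 0 and 2 counts. The day 20 wells were at 234, 258 and 239.9 CPM, the day 30 wells at 284, 429 and 375 CPM and the day 90 wells at 305, 848 and 454 CPM. Every day 30 and every day 90 well was above every day 9 well. The change from day 9 was 1.03 ± 0.26 at day 30 (adjusted p 0.0023) and 1.59 ± 0.26 at day 90 (adjusted p 5e-06, edgeR's quasi-likelihood test). Without day 9 replicate 2 and day 90 replicate 4 these changes were 0.87 and 0.96, under the minimum of 1, with adjusted p of 0.0042 and 0.0036. Leaving out day 9 replicate 2, day 30 replicate 10 or day 30 replicate 3 singly also ended the day 30 call (0.89, 0.86 and 1.00). On log2(TPM + 1) with limma the day 90 change was 0.80 and was not called, and with the sequencing lane as a covariate the day 30 change was 0.91.

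TNNT2, cardiac troponin T of the contractile filament, rose over the same days, and CORIN was set against it within each library. The log2 TPM ratio was -4.05 ± 0.13 (SD, n = 5) at day 9 and -4.19 ± 0.51 (n = 3) at day 90, a difference of -0.14 (exact permutation p = 0.554). The same ratio for NPPA was -0.62 ± 0.75 at day 9 and -1.86 ± 1.73 at day 90, and for NPPB -2.66 ± 1.22 and -4.28 ± 1.55 (exact permutation p = 0.196 and 0.161, adjusted over 5 ratios 0.327 for both). Without day 9 replicate 2 and day 90 replicate 4 the differences of day 90 from day 9 were -0.45 for CORIN, -0.48 for NPPA and -1.13 for NPPB. The SD between day 9 wells was 0.13 for CORIN and 0.75 for NPPA, a difference that was not tested.

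**Figure D3:**
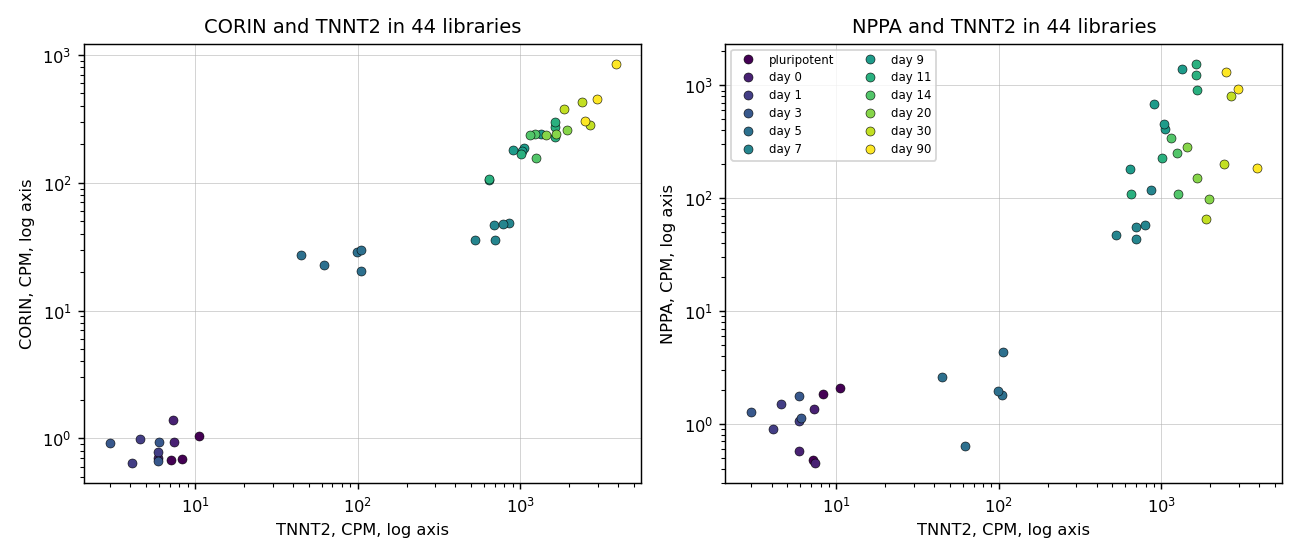
CORIN (left) and NPPA (right) against TNNT2, all in CPM on log axes, 1 point per library coloured by group. At days 30 and 90 CORIN spans 284 to 848 CPM while NPPA spans 65.0 to 1325 CPM at TNNT2 levels of 1869 to 3882 CPM.

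The 3 receptors followed 3 different courses, all at low levels. By mean TPM at day 9, NPR1 was at 4.04, NPR2 at 1.80 and NPR3 at 1.11, against 425 for NPPA and 33.3 for CORIN. NPR1 rose and then fell. Its wells were at 9.69, 11.3 and 9.40 CPM at day 3, at 7.32, 12.8, 20.0, 10.0 and 9.30 CPM at day 5 and at 20.6, 15.9, 30.7, 31.9 and 25.6 CPM at day 7. At day 9 they were at 30.9, 27.2, 41.6, 27.1 and 34.2 CPM, all above day 3, and at day 11 between 23.7 and 39.9 CPM. Day 14 wells held 22.5, 37.7 and 5.06 CPM, day 20 wells 11.6, 12.2 and 1.97 CPM, day 30 wells 6.19, 3.67 and 2.73 CPM and day 90 wells 12.6, 1.67 and 4.54 CPM. No day 30 or day 90 well reached the lowest day 9 well.

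The NPR1 rise from day 3 to day 9 was 1.67 ± 0.48 on the log2 scale (adjusted p 0.0057). Its fall from day 9 was -2.93 ± 0.52 at day 30 (adjusted p 3.5e-05) and -2.34 ± 0.50 at day 90 (adjusted p 0.00026, edgeR's quasi-likelihood test). Without day 9 replicate 2 and day 90 replicate 4 the falls were -2.83 and -1.78, still called, and the rise was 1.54, also called. On log2(TPM + 1) and log2(TPM + 0.1) with limma the rise was 0.76 and 0.99, under the minimum of 1. Of the 5 endothelial markers, 3 rose from day 3 to day 9 (TEK, CDH5 and PECAM1), where 12.3% of tested genes were called higher. NFATC1 fell and KDR was not called, and the summed level of the 5 markers overlapped (340 to 435 CPM at day 3). CDH5 and PECAM1, junction proteins of endothelium, were at 37.3 to 63.0 CPM and 21.4 to 25.6 CPM at day 9 and at 0.0696 to 0.448 CPM and 0.0696 to 0.336 CPM at day 90, and the summed level of the 5 markers was 314 to 531 CPM at day 9, 39.0 to 144 CPM at day 30 and 48.1 to 200.1 CPM at day 90. In day 30 replicates 1, 10 and 3 CDH5 was at 3.38, 1.95 and 14.4 CPM and PECAM1 at 1.91, 2.73 and 20.3 CPM. Replicate 3, the highest in both, was the lowest in NPR1. Of the 5 markers, 3 were called lower at day 30 than at day 9 (TEK, KDR and CDH5), where 18.9% of tested genes were called in either direction. All 5 were called lower at day 90 than at day 9, where 23.9% of tested genes were called in either direction. When day 9 replicate 2 and day 90 replicate 4 were left out, 4 were called lower, without TEK. Their part in the NPR1 course was not tested.

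NPR3 was near the detection limit until day 1 and rose by day 5. It was at 0.596, 0.856 and 1.06 CPM at day 3, at 4.34, 5.19, 9.29, 5.22 and 4.17 CPM at day 5, and at 10.4, 13.2, 17.1, 10.5 and 11.0 CPM at day 9. The wells of day 5 and of day 9 were all above those of day 3. The rise was 2.74 ± 0.61 on the log2 scale by day 5 (adjusted p 0.0011) and 3.88 ± 0.63 by day 9 (adjusted p 6.6e-06, edgeR's quasi-likelihood test). On log2(TPM + 1), a scale that compresses such low values, it was 0.89 by day 9 and under the minimum of 1, and on log2(TPM + 0.1) it was 2.43 and called (limma). Without day 9 replicate 2 and day 90 replicate 4 the edgeR change to day 9 was 3.72, also called. The day 3 wells were also all above those of day 0 (0.302, 0.133 and 0.276 CPM), and this change of 1.80 ± 0.77 did not pass the edgeR test (adjusted p 0.083) but passed DESeq2 (adjusted p 0.031).

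Late NPR3 levels differed widely between wells. At day 7 the wells had been at 8.11, 8.80, 9.27, 8.46 and 20.8 CPM. At day 11 they were at 3.86 and 5.35 CPM in replicates 1 and 2, the wells high in AFP and low in cardiomyocyte markers. The other 3 were at 16.2, 12.4 and 12.1 CPM. Day 30 wells held 20.2, 10.3 and 12.3 CPM. Day 90 wells were at 56.6, 3.76 and 8.29 CPM, with replicate 2 above and the other 2 below every day 9 well. The change from day 9 to day 90 was 0.89 ± 0.49 (adjusted p 0.16, edgeR's quasi-likelihood test), turned to -1.05 without day 90 replicate 2, and rose to 1.54 and was called (adjusted p 0.015) without day 9 replicate 2 and day 90 replicate 4. The log2 TPM ratio of NPR3 to NPR1 was -1.84 ± 0.30 at day 9 and 1.03 ± 0.78 at day 90, 7.34 times as high, with no overlap. The exact permutation p was 0.0179, the smallest that 56 splits allow, and 0.0893 after adjustment over 5 ratios, so the difference did not pass at 0.05. It was 2.94 without day 9 replicate 2 and day 90 replicate 4.

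NPR2 was called in 0 of the 9 comparisons by edgeR's quasi-likelihood test (1 at an unadjusted p under 0.05, and 0 by DESeq2). It ranged from 5.14 to 13.4 CPM in all wells up to day 9 and from 1.64 to 9.25 CPM in the later wells. From day 9 to day 30 it was lower by 0.88 ± 0.30 on the log2 scale (adjusted p 0.020, edgeR's quasi-likelihood test), under the minimum change of 1, with wells at 7.0, 3.98 and 4.58 CPM at day 30 against 8.0, 6.12, 8.96, 11.5 and 13.4 CPM at day 9. It passed that minimum without day 30 replicate 1 (-1.17) or day 9 replicate 10 (-1.01). NPR2 overlaps SPAG8 on the opposite strand, which had 839 counts over all 44 libraries.

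**Figure D4:**
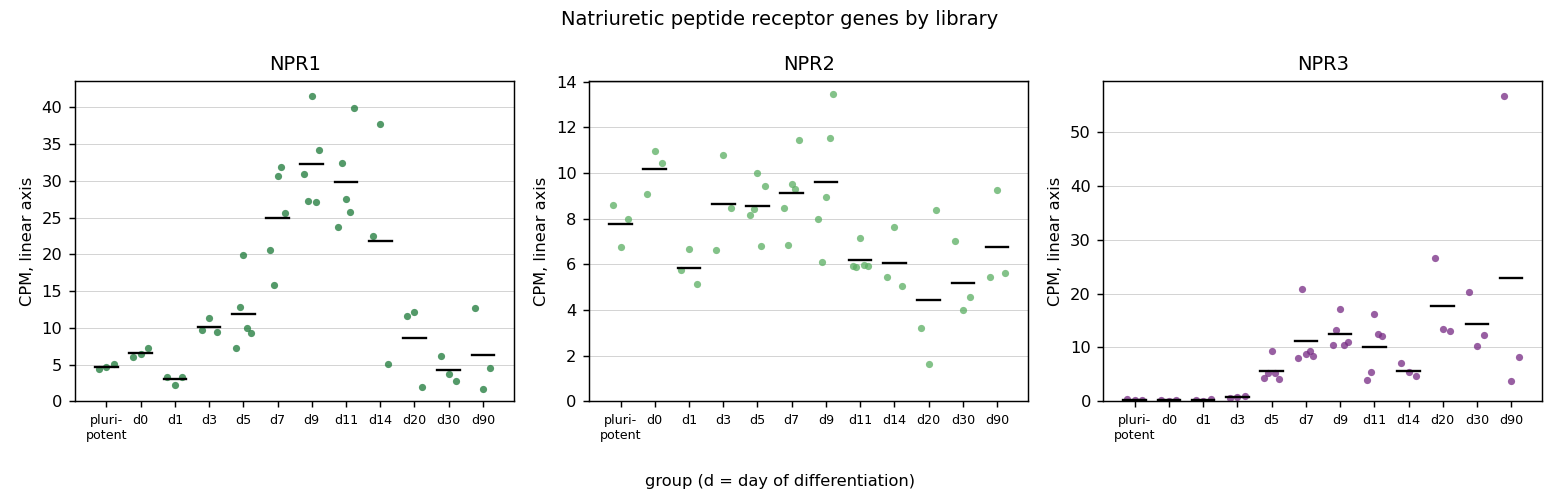
NPR1, NPR2 and NPR3 in CPM (linear axes from 0) for the 12 groups, 1 point per library with group means as black lines. NPR1 is highest in a day 9 well at 41.6 CPM, NPR2 stays under 14 CPM and NPR3 is highest in 1 day 90 well at 56.6 CPM.

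Ordered by group mean, NPPA was highest at day 90, then days 11, 9, 30, 14, 20, 7 and 5, and lowest in pluripotent cells and at days 3, 1 and 0. Of the 11 pairs of neighbours in that order, only days 7 and 5 had wells that did not overlap. NPPB ran from day 9 down through days 90, 20, 30, 11, 14, 7 and 5 to day 0, and only the last of these steps was free of overlap. CORIN ran from day 90 through days 30, 20, 11, 14, 9, 7 and 5 to the early wells, with 4 separated steps, those from day 30 to 20, from 9 to 7, from 7 to 5 and from 5 to 0. NPR3 was separated between days 5 and 3 and between days 3 and 1, and NPPC between days 1 and 90. In NPR1, highest at day 9, and NPR2, highest at day 0, all 11 neighbouring pairs overlapped.

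Counted over the members, day 0 differed from pluripotent cells in 0 of 7 genes (0 under an unadjusted p of 0.05, and 0 by DESeq2), where 2.91% of all tested genes were called. From day 0 to day 3, 1 of 7 was called, NPPC, where 8.76% of tested genes were called lower. From day 3 to day 9, 6 of 7 rose, all but NPR2, where 12.3% of tested genes were called higher. The median log2 change of the 7 was 3.88, against 0.02 over all tested genes, and 6 of 7 were also called without day 9 replicate 2. Without day 3 replicate 1 or 2, 5 were called, and limma on log2(TPM + 1) called 3. From day 9 to day 30, CORIN rose and NPR1 fell (18.9% of genes called in either direction), and the same 2 genes were called from day 9 to day 90 (23.9%). Without day 9 replicate 2 and day 90 replicate 4, only NPR1 was called in the first of these, and NPR1 and NPR3 in the second. The day 90 wells then left, replicates 2 and 5, had NPR3 at 56.6 and 8.29 CPM. Leaving out day 90 replicate 2 alone turned the sign of the NPR3 change. From day 30 to day 90, 0 of 7 were called (5.09% of genes; 1 member, NPPC, had an unadjusted p under 0.05, and DESeq2 called 0). The median log2 change of the 7 was 0.31 at day 0 against pluripotent cells (0 over all tested genes) and -0.15 at day 3 against day 0 (0.02). It was -0.55 at day 30 against day 9 (0.07), 0.56 at day 90 against day 30 (-0.07) and -0.36 at day 90 against day 9 (-0.02). Neighbouring comparisons share the wells of the day between them.

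The added steps placed the rise. From day 3 to day 5, 4 of 7 rose, namely NPPB, CORIN, NPR3 and NPPC, where 5.75% of tested genes were called higher. From day 5 to day 7, 1 of 7 rose, NPPA (2.74%), and from day 7 to day 9, 2 of 7 rose, NPPA and CORIN (1.02%). Median log2 changes of the 7 were 2.74, 0.98 and 0.37, against -0.02, -0.01 and 0 over all tested genes.

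**Figure D5:**
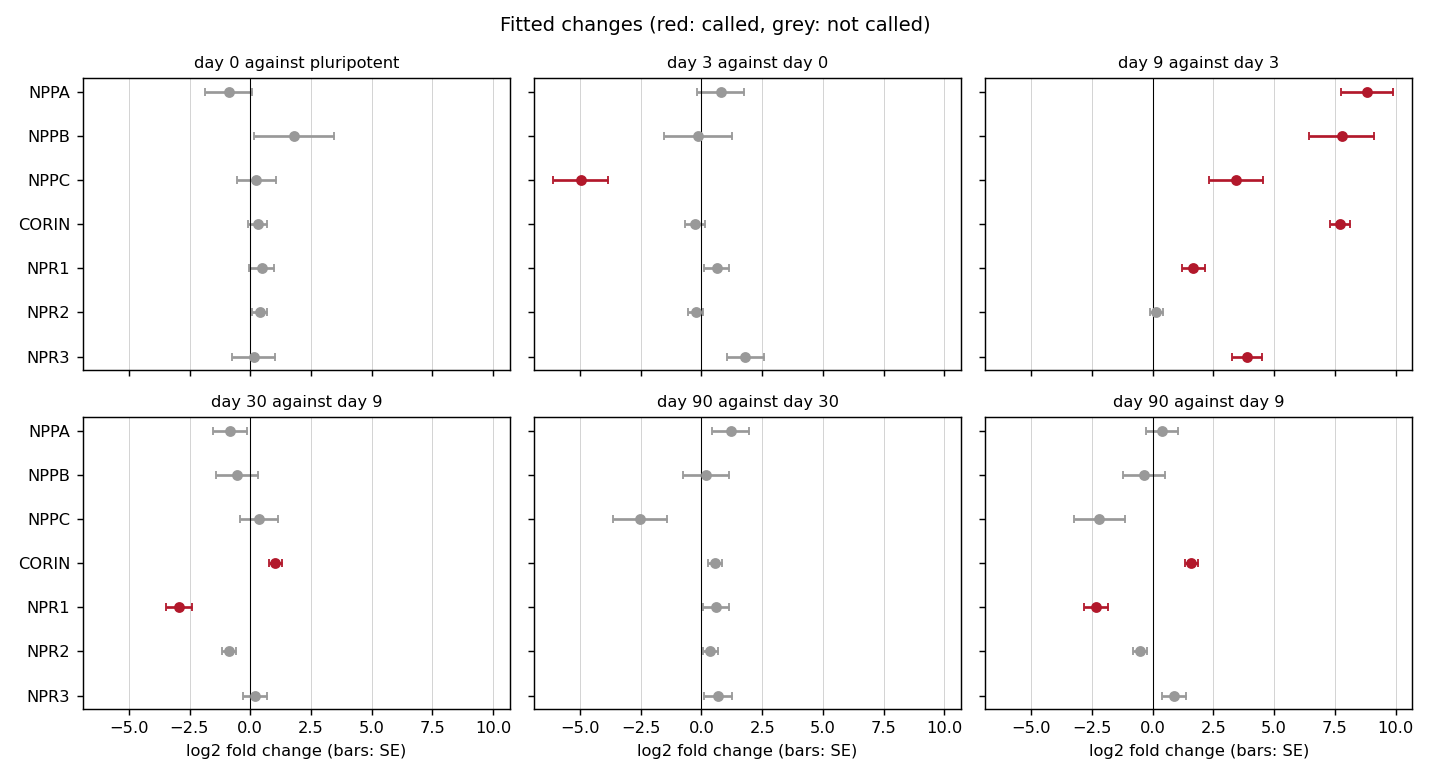
Fitted log2 fold changes (points) with standard errors (bars) of the 7 genes in the 6 comparisons, red where called (adjusted p under 0.05 and a change of at least 1). At day 9 against day 3 all but NPR2 are red, and at day 90 against day 9 only CORIN and NPR1.

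The wider pathway was described from lists of genes, read against the 21.2% of all tested genes called from day 3 to day 9 (12.3% higher) and the 23.9% called from day 9 to day 90. Among 5 peptide-processing and clearance genes, 2 rose from day 3 to day 9 (median of the 5 genes 0.40). These were PCSK6, a convertase that activates corin (1.45 ± 0.22, adjusted p 2.7e-06), and DPP4, a peptidase that trims B-type peptide (3.36 ± 1.09, adjusted p 0.015), which was not called without day 9 replicate 2 and day 90 replicate 4 (2.55, adjusted p 0.064). From day 9 to day 90 MME, the peptidase neprilysin that degrades the peptides, rose (1.37 ± 0.43), and 2 fell, PCSK6 (28.3 to 7.94 CPM, -1.82 ± 0.23, adjusted p 4.2e-08) and FURIN, a convertase that cuts the B-type precursor (145 to 56.2 CPM, -1.36 ± 0.19). IDE, an insulin-degrading peptidase, was called in neither comparison (all from edgeR's quasi-likelihood test).

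The nitric-oxide-sensitive cyclase, which makes the same second messenger, rose in both comparisons. Of 5 tested cyclase genes outside the family, 3 rose from day 3 to day 9 and the same 3 rose from day 9 to day 90. GUCY1A1, its alpha subunit, went from 4.63 to 60.0 and then 235 CPM (3.70 ± 0.47 and 1.97 ± 0.38), and GUCY1B1, its beta subunit, from 2.04 to 11.4 and 44.5 CPM (2.49 ± 0.32 and 1.96 ± 0.27, adjusted p 9.4e-08 and 2.6e-07, edgeR's quasi-likelihood test). GUCY2C, the guanylin receptor, fell in both (2.21 to 0.392 and then 0.122 CPM), the later fall not called without day 9 replicate 2 and day 90 replicate 4 (adjusted p 0.052). GUCA2A and GUCA2B, the guanylin genes, did not pass the count filter, and OSTN, an NPR3 ligand made by bone and muscle, rose from 0.147 to 0.554 CPM from day 9 to day 90. The GUCY2C level of day 90 and the OSTN level of day 9 fall within the 0.0919 to 0.410 CPM that 3 counts correspond to.

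Of 8 tested genes that act on or answer to cyclic GMP, 2 rose and 1 fell from day 3 to day 9 (median -0.04), and 2 rose and 3 fell from day 9 to day 90 (median -0.43). PLN, which restrains the calcium pump of the sarcoplasmic reticulum, went from 1.3 to 108 and then 2295 CPM (6.37 ± 0.53 and 4.41 ± 0.39). PDE3A, a phosphodiesterase that cyclic GMP inhibits, rose from 3.43 to 82.0 CPM (4.58 ± 0.42) and then fell to 30.0 CPM by day 90, a fall not called without day 9 replicate 2 and day 90 replicate 4 (-0.92). The calls of PCSK6, MME, FURIN, GUCY1A1, GUCY1B1, OSTN, PLN, PDE9A and PDE2A given here were also made without those wells. PDE9A, which breaks down cyclic GMP, fell from 32.5 to 3.27 CPM from day 9 to day 90 (-3.30 ± 0.18), and PDE2A, which cyclic GMP activates, from 4.57 to 0.176 CPM (-4.73 ± 0.75, adjusted p 3e-06, edgeR's quasi-likelihood test). The PDE2A level of day 90 falls within the 0.0919 to 0.410 CPM of 3 counts.

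CLCN6, a chloride transporter gene whose 3′ end overlaps NPPA on the opposite strand, lay between 15.3 and 29.9 CPM from day 3 to day 9, and its log2 change of -0.01 ± 0.20 did not pass edgeR's quasi-likelihood test. CORIN has an overlapping pseudogene, AC092597.1, with 256 counts over all libraries, and an overlapping microRNA gene, MIR8053, with 0. An antisense gene, AC107068.2 (47831385 to 47896709), also overlaps the start of CORIN and spans its printed stretch. It was not among the genes counted, so no level is given. All 3 lie on the opposite strand.

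Markers of the atrial and ventricular heart chambers were followed beside the members. From day 3 to day 9, 3 of 4 atrial and 2 of 4 ventricular markers rose (12.3% of all tested genes), and from day 9 to day 90, 1 of 4 and 3 of 4. KCNA5, an atrial potassium channel and the most abundant atrial marker at day 3, was called in neither comparison. SLN, an atrial regulator of the calcium pump, rose from 0.0506 to 3.58 CPM by day 9, while MYL2, the ventricular light chain, rose from 0.487 to 266 CPM between day 9 and day 90. At day 3 SLN and MYBPHL were at or under 3 counts in every well. The summed level of the 4 atrial markers was 20.6 to 28.3 CPM at day 3, 25.3 to 27.4 CPM at day 9 and 12.1 to 45.0 CPM at day 90, with overlap throughout. That of the 4 ventricular markers was 19.8 to 23.5, 172 to 422 and 1397 to 2125 CPM.

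The genes whose log2 CPM ran most like each member over the 44 libraries were found among 7633 protein-coding genes. For NPPA these were FSD2, SMPX, a small muscle protein, and LAMA4, a laminin chain (Pearson r 0.967, 0.965 and 0.955). NPPB was closest to ANKRD1, a stretch-responsive protein of the sarcomere, TPD52L1 and JPH2, which joins the cell membrane to the sarcoplasmic reticulum (0.959, 0.959 and 0.946). CORIN was closest to SMYD1, a muscle methyltransferase, TNNT2 and MYL7, the atrial light chain (0.984, 0.980 and 0.975). NPR3 ran with EDNRA, an endothelin receptor, IGF2 and JPH2 (0.947, 0.941 and 0.939). NPR1 was closest to CPNE2, MYO1D and SOST (0.892, 0.863 and 0.854), and NPR2 to KMT5C, MOGS and YEATS2 (0.829, 0.804 and 0.802). NPPC had no close companion, the 3 highest being MAP1S, PIP4K2A and ZNF787 (0.688, 0.680 and 0.670). The libraries share the time axis, so all genes that switch on with differentiation correlate, and these values are descriptions.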

How the data were processed

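Stranded total RNA libraries of 44 wells were sequenced as 150-base read pairs, 10 libraries to a lane, per the labels' protocols. The authors deposited RSEM estimated counts and TPM per gene for all libraries. Per the submitters' processing notes, cutadapt, STAR 2.5.2b and RSEM 1.2.31 were used with build hg38. The annotation and the strand setting are not given in the sources used here. Sample information deposited by the authors gives an RNA integrity score per library (7.4 to 10.0). It was 10.0 at days 0 and 1, 9.6 to 10.0 at day 3 and 8.9 to 10.0 at day 9. Later it was 7.4 to 9.8 at day 14, 8.0 to 9.3 at day 20, 7.4 to 10.0 at day 30 and 8.0 to 9.5 at day 90. Total counts were 24927986 to 25787305 at day 3 and 6937136 to 27221714 at day 20. The part of RNA quality and depth in the changes was not tested. Of the deposited estimated counts, 93.8% were whole, and the rest were rounded. Of 60499 identifiers, 56769 were found in GENCODE 29 and 3730 were not.

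Counts were filtered by edgeR's filterByExpr to 22955 genes, scaled by TMM and fitted over all 12 groups with edgeR 4.0.16 in R 4.3.3 (quasi-likelihood F test). A gene was called at a Benjamini-Hochberg adjusted p under 0.05 and a log2 change of at least 1. The SE is the size of the log2 change over the square root of F. Ratios were taken on TPM within a library and compared by exact permutation in Python 3.11.15. Alternatives used DESeq2 1.42.0, limma 3.58.1 on TPM, other filters and scalings, the lane, the replicate number, and leaving out each of 30 replicates in turn. The code was tested on simulated data. Genes named beyond the members are those of lists chosen by function, and the 3 most alike by Pearson correlation per member. The members and lists were chosen with earlier results of these data known. The comparisons of neighbouring days from 3 to 9, the ratio of day 9 to day 5 and the joint omission of day 9 replicate 2 and day 90 replicate 4 were added after seeing the data. The list of genes neighbouring NPPA and NPPB is not reported here, apart from CLCN6.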

Additional observations from a re-analysis of the deposited data

Results flagged for a closer look

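In 5 of 28 pairs of a gene and a group of 5 wells, the highest well stood apart from the rest by Dixon's criterion (gap over range above 0.71). Chance gives about 1 in 20 for normal and independent values. The CPM were not put on a log scale and the genes of a group share wells, so no excess over that rate can be read from the count. Day 7 replicate 10 accounted for 3 of them. NPPA was at 117.4 CPM there against 58.38 CPM in the next well, NPPB at 99.67 against 35.74 CPM, and NPR3 at 20.84 against 9.269 CPM. In day 5 replicate 3 NPR3 was at 9.291 CPM, with the next well at 5.217 CPM. In day 11 replicate 5 NPR2 was at 7.147 CPM, with the next well at 5.964 CPM.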

How the results depend on the processing

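Numbers of members called moved as follows. With only the compared groups fitted, 1 was called in day 0 against pluripotent, 2 in day 3 against 0 and 2 in day 7 against 5. DESeq2 called 2 from day 0 to day 3. Limma on log2(TPM + 1), with or without a filter, called 0 in day 3 against 0, 3 in day 9 against 3, 1 in day 90 against 9 and 2 in day 5 against 3, and log2(TPM + 0.1) called 0 in day 3 against 0 and 1 in day 90 against 9. With the lane as a covariate, or without day 9 replicate 2 and day 90 replicate 4, 1 was called from day 9 to day 30. Over all genes, in the order day 0 against pluripotent, 3 against 0, 9 against 3, 30 against 9, 90 against 30, 90 against 9, 5 against 3, 7 against 5 and 9 against 7, 669, 3803, 4870, 4347, 1168, 5485, 2317, 838 and 293 were called, and 1349, 5786, 8238, 7333, 1955, 8818, 4018, 1353 and 453 with no minimum fold change. Fits of the compared groups alone called 1592 in the first, 2 in day 90 against 30 and 497 in the last, and the lane fit 730 in day 90 against 30. Day 9 against 3 aside, limma on log2(TPM + 1) called 47, 1772, 1573, 1902, 2855, 1113, 271 and 33, and without a filter 48, 1630, 1408, 476, 2585, 916, 222 and 18. On log2(TPM + 0.1) it called 57, 2391, 2614, 4042, 424 and 70 in day 0 against pluripotent, 3 against 0, 30 against 9, 90 against 30, 7 against 5 and 9 against 7. Leaving out 1 replicate at a time gave 252 to 395 genes for day 0 against pluripotent, 709 to 1794 for day 90 against 30, and 1 to 4 members for day 30 against 9, 1 to 2 for day 7 against 5. From day 9 to day 90, signs turned on TPM for NPPA (-0.28 under all 3 limma settings) and NPR3 (-0.09, -0.43 and -0.09). Leaving out 1 replicate at a time, NPPA ran from -0.17 to 0.91, NPPB from -0.88 to 0.38 (0.09 without day 90 replicate 4) and NPR3 from -1.05 to 1.39, and the CORIN to TNNT2 ratio ran from -0.41 to 0.09. TPM moved the median gene by up to -0.81 (day 90 against 30) relative to scaled counts. Of 634 values of the 36 changes called under no setting, 78 turned sign. Whether replicate numbers pair the wells was not settled. The lowest correlation of same-numbered wells was -0.176 to 0.096 by comparison, and the mean was -0.04 to 0.218. For day 9 against 7 it ran from 0.055 to 0.454, with 4 of 5 day 9 wells closest to their own number. For day 90 against 9, 2 of 2 were closest to their own number, but 1 of 3 for day 30 against 9 and for day 3 against 0. The replicate block gave 6 members in day 9 against 3 and 3 in day 90 against 9, adding NPPC (-3.00, adjusted p 0.039, edgeR's quasi-likelihood test), and changed no other member count. With pairs of shared numbers the fall of the NPPB to NPPA ratio from day 5 to day 9 was -5.57 (exact permutation p = 0.125, the smallest that 4 pairs allow). The causes were not tested. Levels under the chosen floor of 3 counts, 0.0919 to 0.410 CPM, rest on very few reads, which limits NPPC and early NPR3.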
